A study of Homo sapiens with 6 samples.

Results

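The ATF4 amino acid response is the set of genes that cells transcribe more when amino acids run short or protein synthesis is strained, and 34 of its genes were followed in retinal pigment epithelial (RPE) cells with and without PDZK1 overexpression. The 34 were taken by gene symbol, and they were chosen with earlier results of these data known. They cover 8 transcription factors, 5 feedback and stress effectors and 8 enzymes of amino acid synthesis. A further 2 are enzymes of mitochondrial one-carbon metabolism, and 11 are genes for aminoacyl-tRNA synthetases and tRNA export. All 34 were found among the 20461 genes listed with an Ensembl identifier, and all 34 were among the 13645 genes with enough reads to be tested. The cells were ARPE-19, an established human RPE cell line, and RNA was sequenced in 3 libraries from cells given a control lentivirus and 3 from cells given a PDZK1 overexpression lentivirus. PDZK1 is a scaffold protein that gathers membrane proteins through its PDZ domains. Both groups had been infected at a multiplicity of 10, selected with 4 µg/ml puromycin and then kept in 37.5 mM glucose for 48 h, so that virus, drug selection and high glucose were common to all 6 libraries, and cells in normal glucose were not analysed here. The libraries are called control 1 to 3 and PDZK1 1 to 3. The labels do not say whether the libraries of a group came from separate cultures, so the p-values measure only the spread between these libraries.

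ATF4 is a transcription factor that is controlled mostly at translation. When kinases such as GCN2 (EIF2AK4, activated by uncharged tRNA) or PERK (EIF2AK3, activated by unfolded protein in the endoplasmic reticulum) phosphorylate the initiation factor eIF2, general translation falls while translation of the ATF4 message increases. mTORC1 also raises ATF4 protein, by a route that does not need eIF2 phosphorylation. ATF4 then binds with C/EBP partners to a short composite DNA element and induces amino acid synthesis, amino acid import and tRNA charging, together with feedback genes that limit the response. Because much of this control acts on protein, the level of ATF4 mRNA is only one readout of the pathway and the levels of its targets are another.

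Genes that ATF4 induces can carry the composite element, so it was searched for in the RefSeq promoter windows of GRCh38.p14. These windows run from 250 bases before to 50 bases after a transcription start, and sites outside them were not looked for. The search used TGATGNAA and its reverse complement TTNCATCA, on either strand. A window was at hand for 27 of the 34 genes, and 11 of these 27 (40.7%) held the element, against 1217 of all 27305 genes with a window (4.46%). YARS1, SHMT2, EIF4EBP1, GPT2, NUPR1, PSPH and PYCR1 had no window. The 11 were AARS1, ASNS, ATF3, CEBPG, CHAC1, GARS1, IARS1, JDP2, MARS1, NARS1 and TARS1. The cAMP response element TGACGTCA, a related site for ATF and CREB proteins whose letters cannot match the same 8 bases as the composite element, stood in 1 of the 27 windows (3.7%), that of PPP1R15A, against 2.25% of all genes. The stretches shown belong to genes whose values are described further on. They are given 5′ to 3′ on the strand of the gene, with the matching bases in capitals. Distances count from the RefSeq start, which in these 8 genes lay 29 to 783 bases inside the outer GENCODE gene bounds given further on, so that a stretch before the start can lie within those bounds.
ASNS, chr7:97872460-97872485, minus strand, 68 bases before the start: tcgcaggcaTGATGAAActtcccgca
ATF3, chr1:212565207-212565232, plus strand, 191 bases before the start: aggtcaggaTGATGGAAggctgtcat
CEBPG, chr19:33374062-33374087, plus strand, 42 bases before the start: cgcggcgtcTGATGCAAcctgccggc
CHAC1, chr15:40953253-40953278, plus strand, 209 bases before the start: cccctgccgTTGCATCActcctgcca
JDP2, chr14:75427997-75428022, plus strand, 16 bases before the start: agccggggcTGATGCAAcccgtcccg
GARS1, chr7:30594836-30594861, plus strand, 33 bases before the start: acgcggcgaTTTCATCAtgctccgag
NARS1, chr18:57621806-57621831, minus strand, 14 bases after the start: tacgctctcTGATGCAAcgccggaat
PPP1R15A (cAMP response element), chr19:48872354-48872379, plus strand, 58 bases before the start: ctctcttcgTGACGTCAgcacgccgg
These matches describe the letters of the reference and do not show that a protein was bound. Among the 11 genes with the composite element, 9 had a log2 fold change above 0 and the median was 0.035. Of the 16 genes with a window but no element, 8 were above 0, and their median was -0.0054. The 7 genes without a window are in neither count. They were at 0.097 (YARS1), 0.047 (SHMT2), 0.043 (GPT2), 0.034 (PSPH), 0.020 (PYCR1), 0.0047 (EIF4EBP1) and -0.023 (NUPR1). The element was chosen after the values had been seen, and whether it goes with the fold change was not tested.

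The libraries held 27970618 to 32804567 counts, and PDZK1 itself checked the labels. It had 19, 18 and 23 counts in control 1 to 3 and 3020, 2541 and 2828 counts in PDZK1 1 to 3, which gave 0.668 ± 0.143 and 87.0 ± 8.57 CPM (counts scaled to the size of the library, mean ± SD, n = 3). The log2 fold change was 7.03 (SE 0.13) with an adjusted p of 8.16e-09. Of 17 RPE markers 13 were tested. KRT8 (1152 CPM on average in control libraries), KRT18 (782 CPM), OTX2 (63.6 CPM) and MITF (42.2 CPM) were well expressed, whereas RPE65, TYR, DCT and TTR had at most 4 counts in any library. Scarce on average in control libraries were RDH5 (6.53 CPM), RLBP1 (3.81 CPM), PMEL (2.64 CPM), TYRP1 (1.40 CPM), MERTK (0.721 CPM) and MLANA (0.455 CPM). BEST1 stood apart in 1 library, with 11459 counts in PDZK1 1 against 124 to 181 in the other 5. LRAT and SERPINF1, both scarce at 2.34 and 1.24 CPM on average in control libraries, were separated by group and lower in PDZK1 cells (log2 fold changes -0.82 and -0.83, adjusted p 0.2003 and 0.294). Of 11 markers of other cell types only 3 had enough reads to be tested, and PTPRC, PECAM1, CDH5 and GFAP were not among them. Of the 3, CD68 was separated by group, at 145.7 ± 14.8 CPM in control and 125 ± 1.73 CPM in PDZK1 libraries (log2 fold change -0.22, adjusted p 0.134), PDGFRB averaged 70.8 ± 6.23 and 81.3 ± 4.12 CPM (0.20, adjusted p 0.155), and VWF had at most 22 counts in a library. No marker of either list was called by edgeR, DESeq2 or limma-voom, although edgeR gave 1 RPE marker and 2 markers of other cell types an unadjusted p under 0.05. The part of these differences in the results was not tested.

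None of the 34 genes differed between PDZK1 overexpression and control cells once all 13645 genes were accounted for (edgeR's quasi-likelihood test, Benjamini-Hochberg adjusted p under 0.05), whereas 522 of all genes tested (3.83%, with 1.41% higher and 2.41% lower) did. DESeq2 and limma-voom also called none. Of all genes that edgeR called lower, 41 lay in the first 18 megabases of chromosome 1, which hold none of the 34. In that stretch 140 of 150 tested genes lay below 0, with a median log2 fold change of -0.23, and 1 was called higher. The cause was not tested. The smallest adjusted p of the group was 0.204, for PPP1R15A. Before adjustment 5 of the 34 (14.7%) had p under 0.05 by edgeR, against 17.5% of all genes, and the corresponding numbers were 3 by DESeq2 and 5 by limma-voom. These were ATF4, PPP1R15A, NARS1 and YARS1, which were higher (8.13% of all genes), and ATF3, which was lower (9.37% of all genes). The log2 fold changes ran from -0.23 for ATF3 to 0.20 for JDP2 with a median of 0.030, against a median of -0.00025 over all genes, and 23 of the 34 lay above 0 (67.6%, against 49.9% of all genes). The 95% intervals of all 34 genes stayed within a change of 1.5-fold in either direction, as they did for 78.4% of all genes, and those of 26 stayed within 1.2-fold, against 48.6% of all genes. In bulk RNA a change in RNA per cell and a change in the share of cells that express a gene cannot be told apart.

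**Figure D1:**
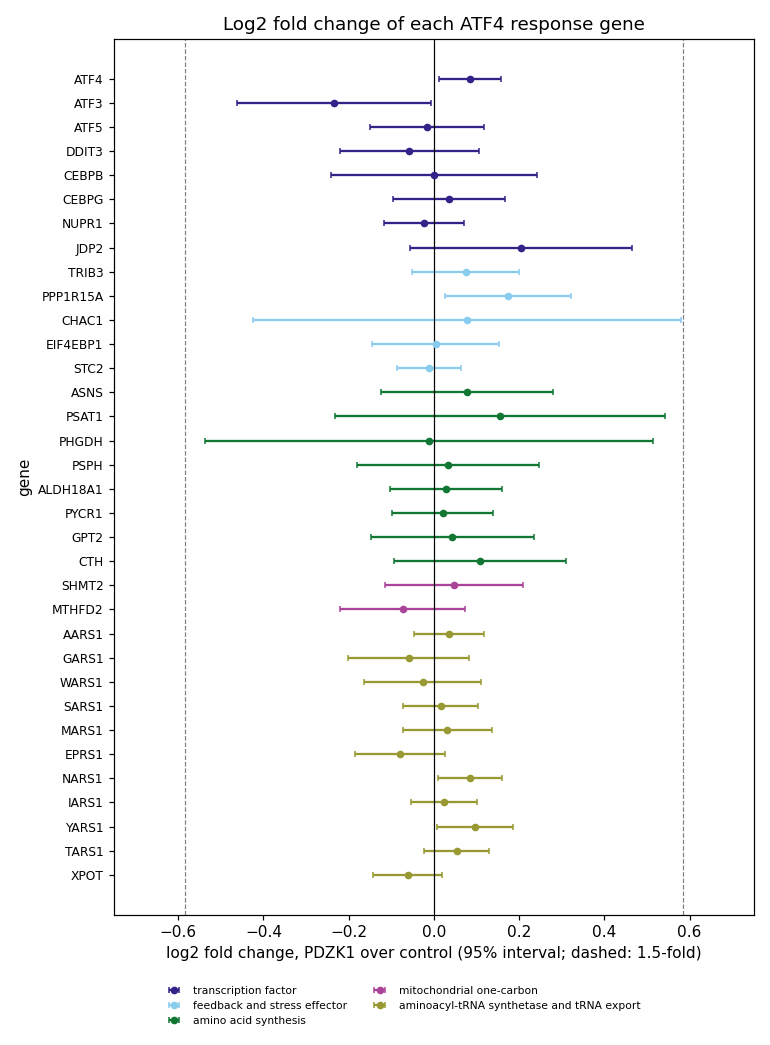
Log2 fold change (PDZK1 over control, x axis) of each of the 34 genes (y axis, colored by role), with the point as the edgeR estimate and the bar as its 95% interval over 3 libraries per group. The dashed lines mark 1.5-fold, and no interval crosses them, with CHAC1, PSAT1 and PHGDH having the widest intervals.

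The libraries of the 2 groups did not overlap for 5 of the 34 genes (14.7%, against 23.9% of all genes), namely ATF4, JDP2, TRIB3, NARS1 and YARS1, and in all 5 the PDZK1 libraries were the higher ones (11.6% of all genes were separated in that direction). No gene of the group was separated with PDZK1 libraries lower, against 12.3% of all genes. The share separated upward was thus near that of all genes, and separation by group was no commoner here than elsewhere in the transcriptome.

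Among the transcription factors, ATF4 and JDP2 stood higher and ATF3 lower in PDZK1 cells, but by amounts that did not pass the test, and 4 of the 8 factors lay above 0 with a median log2 fold change of -0.0076. ATF4 (ENSG00000128272, chromosome 22, 39519695 to 39522685, plus strand) was at 285, 275 and 277 CPM in control 1 to 3 and at 299, 294 and 294 CPM in PDZK1 1 to 3. All PDZK1 libraries thus lay above all control libraries, by a narrow margin. The log2 fold change was 0.085 (95% interval 0.012 to 0.16, unadjusted p 0.0272, adjusted p 0.209), so that a change of ATF4 mRNA beyond that interval was not seen. ATF4 has 4 numbered pseudogenes in the annotation, with which it could share reads.

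ATF3 (ENSG00000162772, chromosome 1, 212565334 to 212620777), a stress-inducible factor that represses some of the genes ATF4 induces, was at 16.0, 13.0 and 14.5 CPM in control 1 to 3 and at 12.0, 13.2 and 11.7 CPM in PDZK1 1 to 3. Control 1 was highest and PDZK1 3 lowest, and control 2 lay below PDZK1 2, so that the groups overlapped. At -0.23 (SE 0.10, adjusted p 0.270), its log2 fold change was the lowest of the 34. JDP2 (ENSG00000140044, chromosome 14, 75427716 to 75474111), a repressor that dimerizes with JUN and ATF proteins, was at 6.04, 5.76 and 6.74 CPM in control 1 to 3 and at 7.21, 7.11 and 7.03 CPM in PDZK1 1 to 3. The 3 PDZK1 libraries were closely grouped above the controls, and at 0.20 (SE 0.12, adjusted p 0.412) the log2 fold change was the highest of the group, although it turned to -0.23 on the log2(FPKM + 1) scale. JDP2 lies across from AF111167.2 on the opposite strand, and whether the counting used strand is not given in the sources used here.

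DDIT3, which encodes CHOP, the factor that links a lasting stress response to cell death, averaged 26.1 ± 1.52 CPM in control and 25.1 ± 1.71 CPM in PDZK1 libraries, with -0.057 (adjusted p 0.749) on the log2 scale. It overlaps MARS1, another gene of the group, on the opposite strand. CEBPB, a C/EBP partner of ATF4, was at 79.8, 78.7 and 60.7 CPM in control 1 to 3 and at 75.7, 70.1 and 73.5 CPM in PDZK1 1 to 3, with control 3 well below the other 5 libraries and a log2 fold change of 0.00064 (adjusted p 0.999). The log2 fold changes of the other partner CEBPG (0.035), of the ATF4-related factor ATF5 (-0.016) and of the stress cofactor NUPR1 (-0.023) were each smaller than their standard errors of 0.059, 0.060 and 0.042.

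Of the 5 feedback and stress effectors 4 had a log2 fold change above 0, with a median of 0.075, and none passed the test. PPP1R15A (ENSG00000087074, chromosome 19, 48872392 to 48876057), which encodes GADD34, the phosphatase subunit that restores translation by dephosphorylating eIF2, was at 78.3, 71.8 and 65.2 CPM in control 1 to 3 and at 81.6, 77.6 and 83.6 CPM in PDZK1 1 to 3. Only control 1 reached into the range of the PDZK1 libraries. The log2 fold change was 0.17 (SE 0.066, unadjusted p 0.0261, adjusted p 0.204), and without control 1 it was 0.24 with an adjusted p of 0.0993. Over the 6 fits that each left out 1 library it lay between 0.11 and 0.24.

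TRIB3 (ENSG00000101255, chromosome 20, 362835 to 397559), a pseudokinase that binds ATF4 and restrains it, was at 25.0, 24.5 and 24.7 CPM in control 1 to 3 and at 25.7, 25.7 and 26.7 CPM in PDZK1 1 to 3. The groups did not overlap, yet the log2 fold change was only 0.075 (SE 0.056, adjusted p 0.556). CHAC1, which degrades glutathione and is among the most inducible targets of ATF4, was scarce, at 2.51, 2.04 and 2.25 CPM in control 1 to 3 and 2.81, 2.50 and 1.86 CPM in PDZK1 1 to 3. PDZK1 libraries held both its highest and its lowest value, and its interval, -0.43 to 0.58, was among the widest of the group. EIF4EBP1, a translation repressor that mTORC1 inactivates, and STC2, a secreted glycoprotein, had log2 fold changes of 0.0047 and -0.012.

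**Figure D2:**
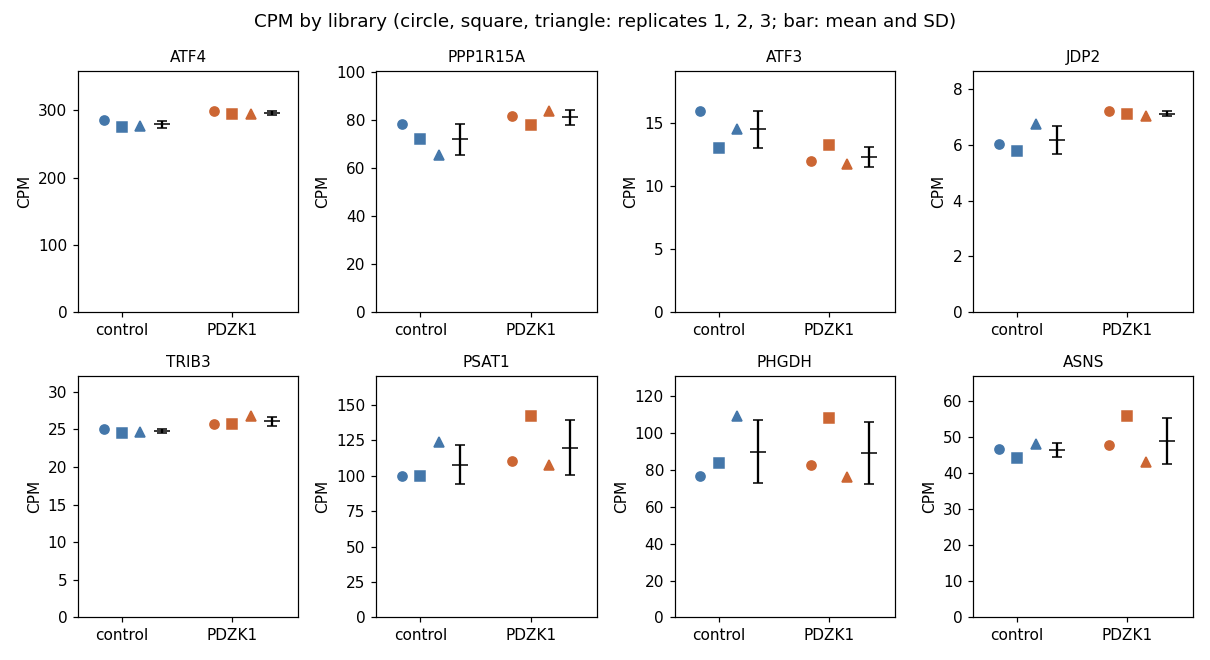
CPM (y axis, from 0) of 8 of the genes in the control and PDZK1 libraries, with replicate 1, 2 and 3 as circle, square and triangle and the bar giving mean ± SD over 3 libraries. ATF4, JDP2 and TRIB3 were separated by group, whereas PSAT1, PHGDH and ASNS varied within groups, with PDZK1 2 and control 3 high.

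Enzymes of amino acid synthesis lay above 0 in 7 of 8 cases with a median log2 fold change of 0.038, but the groups overlapped for all 8, and some of them varied widely within a group. PSAT1 (ENSG00000135069, chromosome 9, 78297143 to 78330093), the aminotransferase of serine synthesis, was at 99.6, 99.8 and 124 CPM in control 1 to 3 and at 110.2, 142 and 107 CPM in PDZK1 1 to 3. Its log2 fold change was 0.16 (SE 0.15, adjusted p 0.685). It was 0.018 without PDZK1 2 and 0.27 without control 3. PHGDH (ENSG00000092621, chromosome 1, 119648411 to 119744226), the first enzyme of the serine pathway, was at 76.5, 83.7 and 109 CPM in control 1 to 3 and at 82.7, 108 and 76.1 CPM in PDZK1 1 to 3. Control 3 and PDZK1 2 were nearly equal and stood above the other 4 libraries, and the fold change was -0.011 on the log2 scale (SE 0.20, adjusted p 0.989).

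PSPH, the phosphatase that completes serine, followed with 19.5, 21.5 and 25.1 CPM in control 1 to 3 and 23.0, 23.6 and 21.0 CPM in PDZK1 1 to 3, with 0.034 (adjusted p 0.901) as its log2 fold change. ASNS, asparagine synthetase, was at 46.6, 44.2 and 48.1 CPM in control 1 to 3 and at 47.8, 55.7 and 43.0 CPM in PDZK1 1 to 3. PDZK1 libraries held the highest and the lowest value of ASNS, and its log2 fold change, 0.078 with an SE of 0.089 and an adjusted p of 0.726, became -0.026 in the fit without PDZK1 2. CTH (ENSG00000116761, chromosome 1, 70411218 to 70439851), which makes cysteine from cystathionine, was at 11.9, 13.2 and 13.4 CPM in control 1 to 3 and at 13.8, 14.6 and 13.1 CPM in PDZK1 1 to 3. Its log2 fold change was 0.11 (SE 0.090, adjusted p 0.602). The proline enzymes ALDH18A1 and PYCR1 and the alanine aminotransferase GPT2 had log2 fold changes of 0.028, 0.020 and 0.043. In the mitochondrial one-carbon pathway, which takes over the carbon of serine, SHMT2 was at 0.047 (adjusted p 0.796) and MTHFD2 at -0.073 (adjusted p 0.631).

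Of the aminoacyl-tRNA synthetases, which load tRNAs with their amino acids, NARS1 and YARS1 were separated by group, and the 11 genes of this class had a median log2 fold change of 0.024, with 7 above 0. NARS1 (ENSG00000134440, chromosome 18, 57600656 to 57622213), which charges asparagine, was at 417, 411 and 408 CPM in control 1 to 3 and at 428, 437 and 444 CPM in PDZK1 1 to 3. Its log2 fold change was 0.084 (SE 0.033, unadjusted p 0.0313, adjusted p 0.225). YARS1 (ENSG00000134684, chromosome 1, 32775237 to 32818153), which charges tyrosine and overlaps S100PBP on the opposite strand, was at 146, 147 and 143 CPM in control 1 to 3 and at 148, 163 and 155 CPM in PDZK1 1 to 3. The gap between the groups was narrow, between control 2 and PDZK1 1, and the log2 fold change was 0.097 (SE 0.040, adjusted p 0.241). At the other end EPRS1 (-0.079, adjusted p 0.432) and the tRNA exporter XPOT (-0.061, adjusted p 0.431) lay below 0, as did WARS1 (-0.026) and, by counts though not by FPKM, GARS1 (-0.059). The remaining log2 fold changes were 0.035 for AARS1, 0.016 for SARS1, 0.031 for MARS1, 0.024 for IARS1 and 0.054 for TARS1, and the intervals of all 11 genes stayed within 1.2-fold.

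The libraries differed from each other in a way that the groups did not follow. Relative to its own mean over the 6 libraries, the median gene of the 34 was at -0.025, -0.034 and 0.020 on the log2 scale in control 1 to 3 and at -0.013, 0.047 and -0.016 in PDZK1 1 to 3, while the median over all genes was within 0.0050 of 0 in every library. The 8 enzymes of amino acid synthesis spread further, at -0.14, -0.076 and 0.066 in control 1 to 3 and at 0.0011, 0.15 and -0.047 in PDZK1 1 to 3. PDZK1 2 was the highest library for 13 of the 34 genes and the lowest for none, whereas over all genes it was highest for 16.3% and lowest for 16.8%. Without PDZK1 2, the median log2 fold change of the 34 went to -0.0051, with 17 genes above 0. The excess of genes above 0 was thus not seen without that library, which had been singled out from these same values. Leaving out any other library left 19 to 25 genes above 0.

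Control 3 and PDZK1 2 were together the 2 highest libraries for 12 of the 34 genes (35.3%), against 11.4% of all genes tested and 13.9% of the 6512 genes with a mean of at least 5 on the log2 CPM scale. The 12 were PHGDH, PSAT1, PSPH, ASNS, PYCR1, SHMT2, AARS1, GARS1, MARS1, SARS1, EIF4EBP1 and STC2. They comprise the whole serine pathway from PHGDH to PSPH and no transcription factor (0 of 8). The same order was seen for 5 of 21 other ATF4 targets (23.8%), and for 0 of 17 genes of eIF2 and its kinases and 0 of 19 chaperones of the endoplasmic reticulum. It was also seen for 3 of 15 other non-essential amino acid enzymes (20%) and 2 of 12 folate and one-carbon enzymes (16.7%). Among other cytosolic and mitochondrial synthetases it was seen for 2 of 13 (15.4%) and 2 of 17 (11.8%). This pattern was noticed after the values had been seen, no test was made of it, and control 3 and PDZK1 2 were also the libraries with the fewest and the most counts, a feature whose part in the pattern was not tested.

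**Figure D3:**
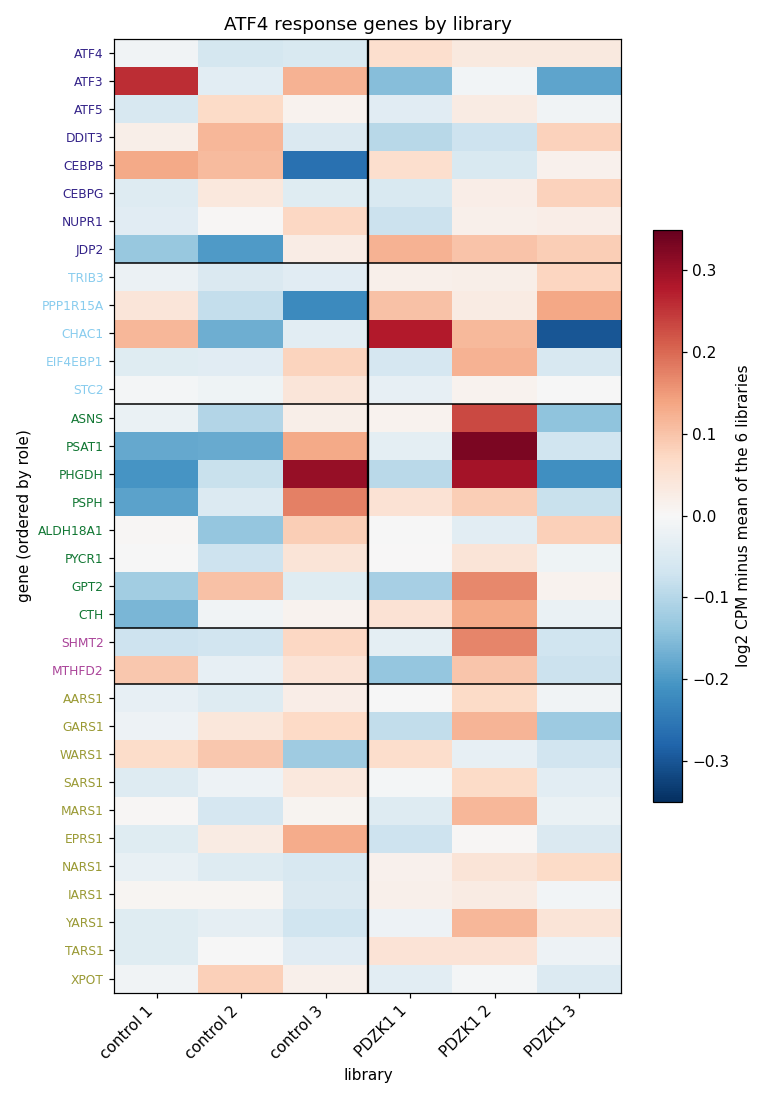
Deviation of log2 CPM from the mean of the 6 libraries (color, log2 units) for each of the 34 genes (rows, ordered by role) in each library (columns, control left of the line). PDZK1 2 was the highest library for 13 genes and the lowest for none, and the serine pathway genes PHGDH, PSAT1 and PSPH were high in control 3 and PDZK1 2.

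FPKM, which scale fragments by transcript length and can be compared between genes, placed ATF4 and several synthetases at the top of the group. ATF4 averaged 169.9 ± 13.7 FPKM in control libraries, NARS1 138 ± 2.07, IARS1 95.9 ± 1.97 and SARS1 93.3 ± 2.54, so that IARS1 and SARS1 did not differ beyond their spread. CHAC1 was lowest, at 1.43 ± 0.101 FPKM, after JDP2 at 3.53 ± 0.534. DDIT3 (26.1 ± 1.53 FPKM) and TRIB3 (9.88 ± 0.155 FPKM) lay well below the synthetases.

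The deposited counts and FPKM gave different pictures of a few genes, most plainly of GARS1, which charges glycine. By counts GARS1 (ENSG00000106105, chromosome 7, 30594681 to 30634033) was at 223, 232 and 237 CPM in control 1 to 3 and at 212, 245 and 206 CPM in PDZK1 1 to 3, with -0.059 (adjusted p 0.698) on the log2 scale. By FPKM it was at 76.3, 76.2 and 79.0 in control 1 to 3 and at 91.0, 90.6 and 90.7 in PDZK1 1 to 3, with no overlap between the groups. On the log2(FPKM + 1) scale the difference was 0.23 with an adjusted p of 0.0246 (limma with a trend), opposite in direction to the counts. GARS1 was the only one of the 34 genes called under any alternative, and it was called in all 3 fits on FPKM. GARS1 lies across from GARS-DT on the opposite strand and has 1 numbered pseudogene.

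JDP2 also parted, since its PDZK1 1 library had the highest CPM (7.21) and the lowest FPKM (1.53, with 3.68 and 3.78 in PDZK1 2 and 3 and 3.48, 3.01 and 4.08 in control 1 to 3). The ratio of FPKM to CPM had a coefficient of variation over the 6 libraries of 28.9% for JDP2, 13.1% for GARS1, 9.58% for MTHFD2 and 9.05% for ATF4, against a median of 1.35% over the 34 genes and 1.58% over all genes with a mean FPKM of at least 0.5. Of these genes 5.04% had a higher ratio variation than GARS1. ATF4, whose groups were separated by CPM, overlapped by FPKM, at 155, 174 and 181 in control 1 to 3 and 159.9, 181 and 194 in PDZK1 1 to 3. By FPKM the groups were separated upward for GARS1, PPP1R15A, TRIB3, IARS1 and NARS1 and downward for XPOT, where 21.7% of all genes were separated in either direction. TRIB3 and NARS1 were the 2 genes separated by both measures.

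**Figure D4:**
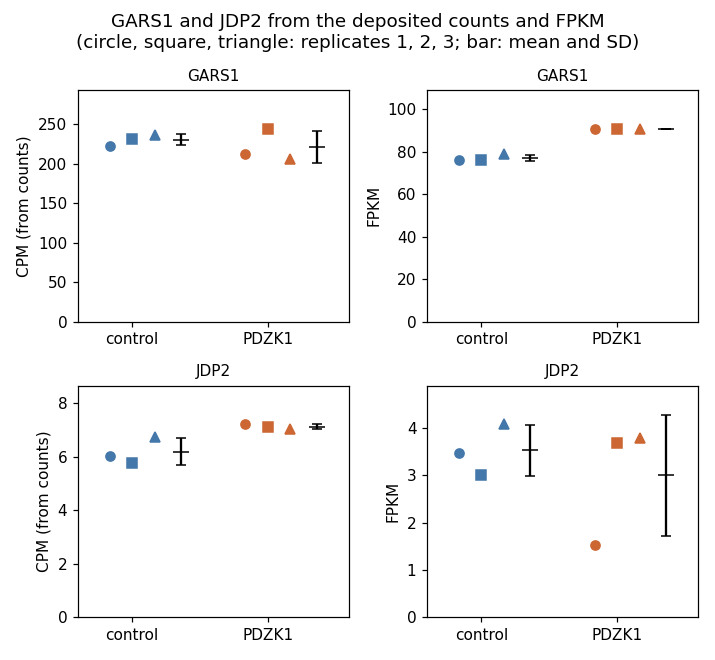
GARS1 and JDP2 in the control and PDZK1 libraries as CPM computed from the counts and as the deposited FPKM (y axes, from 0), with replicate 1, 2 and 3 as circle, square and triangle and the bar giving mean ± SD over 3 libraries. GARS1 was separated by group in FPKM and overlapped in CPM, and JDP2 was separated in CPM and overlapped in FPKM.

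Upstream of ATF4, 17 genes for eIF2, its exchange factor, its kinases and their partners were tested. None was called by edgeR, DESeq2, limma-voom or limma on FPKM. By edgeR 2 of them (11.8%) had an unadjusted p under 0.05, against 17.5% of all genes. The log2 fold change was 0.0019 for EIF2AK4, the amino acid sensing kinase GCN2, and -0.066 for EIF2AK3, the kinase PERK. Among 27 further ATF4 targets, 21 were tested and 2 were called, against 3.83% of all genes. Both were higher in PDZK1 cells, the direction in which 1.41% of all genes were called. DESeq2 called 3 genes of this list and limma-voom 2. HERPUD1 had the next smallest edgeR p and was separated by group with PDZK1 libraries higher (log2 fold change 0.18, adjusted p 0.053). BBC3, which encodes the pro-apoptotic protein PUMA, was at 11.2, 10.8 and 11.9 CPM in control 1 to 3 and at 15.2, 14.7 and 14.7 CPM in PDZK1 1 to 3. The log2 fold change was 0.39 (SE 0.084, adjusted p 0.0322). KLHL24, a substrate adaptor for ubiquitin ligases, averaged 85.7 ± 0.439 CPM in control and 99.2 ± 3.44 CPM in PDZK1 libraries, with a log2 fold change at 0.21 (SE 0.040, adjusted p 0.0204). With a library left out, BBC3 and KLHL24 each kept their call in only 1 of 6 fits. By limma on log2(FPKM + 1) the adjusted p was 0.0347 for BBC3 and 0.118 for KLHL24. BBC3 is also a target of p53. The amino acid transporters SLC38A2 and SLC7A3 of this list had too few reads to be tested, with at most 18 and 2 counts in a library. Those that were tested did not pass. Log2 fold changes were 0.16 for SLC7A5 (adjusted p 0.294), 0.084 for its partner SLC3A2 (adjusted p 0.307) and 0.11 for the cystine carrier SLC7A11 (adjusted p 0.727). The tested transporters did not share a direction. SLC1A4, a carrier of neutral amino acids, had the smallest p among them. It was separated by group with PDZK1 libraries lower (-0.29, adjusted p 0.0868), and the cationic carrier SLC7A1 was at -0.051.

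Of 13 further cytosolic synthetases and their scaffold proteins, 1 was called, against 3.83% of all genes. It was lower in PDZK1 cells, the direction in which 2.41% of all genes were called. LARS1, which charges leucine and also acts as a leucine sensor for mTORC1, was at 253.0, 248 and 259 CPM in control 1 to 3 and at 222, 221 and 222 CPM in PDZK1 1 to 3. Its log2 fold change was -0.19 (SE 0.032, adjusted p 0.0110), and with a library left out it kept its call in 4 of 6 fits. On the log2(FPKM + 1) scale, however, its adjusted p was 0.172. Among enzymes for other non-essential amino acids ASL, the argininosuccinate lyase of arginine synthesis, fell. It averaged 52.8 ± 1.69 CPM in control and 43.8 ± 1.61 CPM in PDZK1 libraries. Its log2 fold change was -0.27 (SE 0.053, adjusted p 0.0230), and 1 of the 6 reduced fits called it. By limma on log2(FPKM + 1) its adjusted p was 0.0856.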

How the data were processed

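The 34 genes and the related gene lists were chosen with earlier results of these data known, and the sequence motifs after the values had been seen. The authors deposited read counts, which were taken here to be estimated counts (whole numbers per gene, not scaled for depth), and FPKM. The submitters' processing notes name fastp 0.20.1, HISAT2 2.2.1 and GRCh38. The counting program and strandedness are not given in the sources used here, and 853 of 21314 entries are assembled loci (0.519% to 0.536% of the counts), left out of the test. Both tables hold 3 columns each that match no sample and were not used. Genes passing filterByExpr were tested with edgeR 4.0.16 (R 4.3.3, TMM, robust quasi-likelihood, 3 libraries per group, no covariates). That procedure was also run on simulated data, in which genes varied independently, without the differences between libraries that genes shared here. P-values were adjusted by Benjamini-Hochberg over all 13645 genes, with a threshold of 0.05. CPM used TMM-scaled library sizes. Coordinates are from GENCODE 29 (GRCh38), and promoter windows from RefSeq (GRCh38.p14).

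All 34 genes are named. Values in every library are given for those called, the 6 with the largest log2 fold changes in size and those whose groups did not overlap. Others were picked after their values were seen, as were uncalled genes of the related lists. Some called genes of the related lists are not reported here. Alternatives were DESeq2 1.42.0, limma-voom (limma 3.58.1), limma with a trend on log2(FPKM + 1) and log2(FPKM + 0.1) at a mean FPKM of at least 0.5 or without that filter, other scalings and filters, a non-robust fit, assembled loci kept, a fold change above 1.5, the replicate number as a block, and each library left out. The depth was 27970618 to 32804567 counts. The biological coefficient of variation, which edgeR estimates from the spread between libraries of a group, was 0.0995.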

Additional observations from a re-analysis of the deposited data

How the results depend on the processing

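PDZK1 kept its direction and its call under every alternative (log2 fold change 4.92 to 7.21). Of all genes, 522 were called, a number that went to 814 with DESeq2, to 191, 187 and 184 on log2(FPKM + 1), log2(FPKM + 0.1) and log2(FPKM + 1) without a filter, 163 with the replicate number as a block, 171 with a fold change above 1.5 also required, and 181 to 875 with a library left out (875 without control 3, 181 without PDZK1 1). Same-numbered libraries did not deviate together (correlations -0.0462, -0.056 and -0.143), so the numbers were not taken as pairs. The number among the 34 genes, 0, was 1 in each of the 3 FPKM fits (GARS1) and 0 in all others, the block included. Their median log2 fold change was -0.0051 to 0.046 with a library left out. Of 114 tested genes of the related lists 7 were called, against 3.83% of all genes. The 7 became 1 in each FPKM fit (BBC3 on log2(FPKM + 1)), 1 with the block, 0 with a fold change above 1.5, and 1 to 12 with a library left out.

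Some single genes changed sign, and the cause was not tested. On log2(FPKM + 1) and log2(FPKM + 0.1) the values were 0.018 and 0.019 for ATF5, 0.23 and 0.23 for GARS1, -0.23 and -0.32 for JDP2, 0.0080 and 0.0080 for NUPR1, 0.0071 and 0.0073 for PHGDH and 0.0030 and 0.0031 for STC2. With library totals as the only scaling they were 0.0020 for ATF5, 0.0065 for PHGDH and 0.0057 for STC2. With a library left out the ranges were -0.030 to 0.080 for ALDH18A1, -0.026 to 0.16 for ASNS, -0.048 to 0.014 for ATF5, -0.12 to 0.069 for CEBPB, -0.053 to 0.23 for CHAC1, -0.056 to 0.045 for EIF4EBP1, -0.032 to 0.11 for GPT2, -0.018 to 0.063 for MARS1, -0.049 to 0.0099 for NUPR1, -0.17 to 0.15 for PHGDH, -0.048 to 0.14 for PSPH, -0.011 to 0.048 for PYCR1, -0.012 to 0.039 for SARS1, -0.029 to 0.10 for SHMT2, -0.024 to 0.0057 for STC2 and -0.091 to 0.016 for WARS1. Depth limits CHAC1 most, at about 2 CPM.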

Other observations

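Of 17 mitochondrial aminoacyl-tRNA synthetases 14 lay below 0 (17.6% above 0, against 49.9% of all genes), with a median log2 fold change of -0.048 against -0.00025 over all genes, and 4 were separated by group with PDZK1 libraries lower, as were 12.3% of all genes. None was called by edgeR (4, or 23.5%, with an unadjusted p under 0.05, against 17.5% of all genes), DESeq2 or limma-voom. Of 19 chaperones and sensors of the unfolded protein response in the endoplasmic reticulum, 13 lay below 0 (31.6% above 0) with a median of -0.061. There 6 were separated downward and 1, DNAJC3, upward. Relative to its own mean, the median gene of this list was at 0.052, 0.064 and -0.066 on the log2 scale in control 1 to 3. In PDZK1 1 to 3 it was at -0.0086, -0.11 and -0.0033, so that control 3 lay below PDZK1 1 and PDZK1 3. Neither edgeR (6, or 31.6%, with an unadjusted p under 0.05) nor limma-voom called any, and DESeq2 called 1. HSP90B1, an abundant chaperone of the HSP90 family, was at 1158, 1182 and 1125 CPM in control 1 to 3 and at 1062, 1001 and 1082 CPM in PDZK1 1 to 3, a log2 fold change of -0.14 (adjusted p 0.111). No test was made of either list as a whole, and the other lists tied to protein synthesis were split about evenly, with 8 of 17 genes of eIF2 and its kinases and 6 of 13 further cytosolic synthetases above 0.

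Of the enzymes of folate and one-carbon metabolism outside the 34 genes, SHMT1, the cytosolic counterpart of SHMT2, was just under the threshold. It averaged 93.4 ± 2.06 CPM in control and 104.3 ± 1.87 CPM in PDZK1 libraries (log2 fold change 0.16, edgeR adjusted p 0.0482). DESeq2 also called it (adjusted p 0.0298). It was not called by limma-voom (0.0538), by limma on log2(FPKM + 1) (0.331) or by edgeR with the replicate block (0.157). With a library left out 1 of 6 fits called it.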
